A study of Mus musculus with 9 samples.

Results

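The 10 genes described here are the core of Notch signaling as it was measured in the mandible: the receptors *Notch1*, *Notch2*, *Notch3* and *Notch4*, the ligands *Jag1*, *Jag2*, *Dll1* and *Dll4*, and the target genes *Hes1* and *Hey1*. They were chosen by name, and all 10 were among the 27179 genes of the count table and among the 16329 genes tested. Poly(A) RNA was sequenced from whole mandibles, teeth included, of 5 wild type (WT) mice and 4 mice labelled *FcγRIIB*-/-, a label that stands for deletion of the inhibitory Fc gamma receptor IIb. All mice were on the C57BL/6 strain and 6 months old, the *FcγRIIB*-/- mice were males, and the labels give no other allele or treatment. Such a deletion is not limited to 1 cell type, and the tissue was pulverized whole, so no value can be assigned to 1 cell type, and fewer cells of a type cannot be told apart from less RNA per cell. The question was how the mandible of mice labelled *FcγRIIB*-/- differed from WT in these transcripts.

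Notch receptors sit in the membrane of one cell and are bound by Jagged or Delta-like ligands on its neighbor. Binding exposes the receptor to ADAM proteases and then to gamma-secretase, which frees its intracellular part. That part enters the nucleus, joins RBPJ and Mastermind proteins on DNA, and switches on repressors of the Hes and Hey families. In bone, Notch signaling is known for holding osteoblast progenitors back from maturing and for acting on osteoclast precursors. In vessels, Dll4, Jag1 and Notch4 are known from endothelium and Notch3 from the mural cells around it. In the tooth, Jag2 and Notch1 are known from the dental epithelium.

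The libraries held 24158960 to 26787359 counts in WT and 21453880 to 28991631 counts in the libraries labelled *FcγRIIB*-/-. *Fcgr2b*, the gene named in the label, was not lower in the latter, so its RNA level does not bear out the label. The WT mean was 24.0 ± 8.28 CPM (SD, n = 5), where CPM are counts scaled to a common library size, and that of the other group 27.8 ± 2.90 CPM (SD, n = 4), so the log2 fold change was 0.21 (SE 0.20, edgeR adjusted p = 0.442). Counts summed over a gene cannot show whether its sequence was disrupted, and the paper states that the mice were genotyped from tail DNA. The groups are therefore named by their labels throughout. At an adjusted p under 0.05, 14.0% of all genes tested were higher than in WT and 19.3% were lower. Scaled by library totals instead of TMM, 25.7% of the calls were higher instead of 42.1%. Fold changes also moved with transcript length. The median log2 fold change was 0.17 in the shortest quintile of genes, of which 26.8% were higher and 13.1% lower, and -0.16 in the longest quintile, of which 5.6% were higher and 33.4% lower. Relative to the mean of all libraries, genes of the longest quintile lay 0.05 to 0.11 above on the log2 scale in the 5 WT libraries, and at -0.04 to -0.15 in the 4 others. Values from a fit with this trend removed from each library are given beside many of the results below. Whether the trend is technical or biological was not tested.

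The promoter sequences of the genes that moved are shown first, because called genes fell among the receptors and rose among the ligands and *Notch4*. RefSeq windows of 250 bases before the transcription start (build GRCm38.p6) matched 8 of the 10 genes. *Hes1* and *Hey1* had no entry. The 4 windows below end at the annotated gene start: *Notch1* on chr2:26503823-26504072 (minus strand) and *Notch2* on chr3:98013288-98013537 (plus strand), which were lower, and *Jag1* on chr2:137116521-137116770 (minus strand) and *Dll4* on chr2:119325534-119325783 (plus strand), which were higher. Capitals mark matches to CACGNG on either strand, the class of site that Hes and Hey repressors are known to bind, which includes the E box CACGTG.
Notch1: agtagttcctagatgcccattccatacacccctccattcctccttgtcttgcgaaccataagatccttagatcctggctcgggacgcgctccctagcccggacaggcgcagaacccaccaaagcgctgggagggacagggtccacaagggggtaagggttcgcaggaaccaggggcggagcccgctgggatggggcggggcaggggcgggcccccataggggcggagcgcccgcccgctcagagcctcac
Notch2: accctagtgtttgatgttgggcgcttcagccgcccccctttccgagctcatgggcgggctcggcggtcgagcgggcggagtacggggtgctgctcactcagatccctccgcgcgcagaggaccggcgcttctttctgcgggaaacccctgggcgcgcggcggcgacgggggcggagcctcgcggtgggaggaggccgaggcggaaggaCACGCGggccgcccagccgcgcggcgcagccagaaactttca
Jag1: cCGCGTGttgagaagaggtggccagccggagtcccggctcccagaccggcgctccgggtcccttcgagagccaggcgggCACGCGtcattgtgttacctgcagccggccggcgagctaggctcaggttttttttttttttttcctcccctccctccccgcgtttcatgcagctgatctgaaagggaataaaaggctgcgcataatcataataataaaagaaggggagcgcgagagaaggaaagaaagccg
Dll4: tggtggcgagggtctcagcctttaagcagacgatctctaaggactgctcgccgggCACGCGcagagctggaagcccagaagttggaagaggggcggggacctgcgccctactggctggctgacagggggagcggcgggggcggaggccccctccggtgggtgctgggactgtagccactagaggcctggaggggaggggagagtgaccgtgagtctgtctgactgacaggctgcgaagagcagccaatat
The *Jag1* window held 2 such matches, at 249 and 171 bases before the start. The *Notch2* window held 1 match, at 42 bases, and the *Dll4* window 1, at 195 bases. *Notch1* had 0 matches. Among the windows not printed, *Notch3* and *Dll1* held the motif, whereas *Notch4* and *Jag2* did not, so matches occurred among genes that were higher, lower and not called. Of all 32851 promoter windows, 23.5% held CACGNG. The windows of these genes had 56.0% (*Dll1*) to 87.2% (*Jag2*) GC and 4 (*Notch4*) to 54 (*Jag2*) CG pairs, against medians of 52.4% and 6 over all windows. The motif itself holds a CG pair, so the windows of these genes and all windows are not compared like for like. The high-affinity RBPJ motif GTGGGAA was in 0 of the 9 windows of these genes and in 5.4% of all windows. These are letter matches in a short window and say nothing about binding.

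Of the 10 genes, 5 were higher (*Notch4*, *Jag1*, *Jag2*, *Dll4* and *Hes1*) and 3 were lower (*Notch1*, *Notch2* and *Notch3*) than in WT. *Dll1* and *Hey1* did not pass. These counts stand beside the 14.0% higher and 19.3% lower of all genes. In 4 genes every library labelled *FcγRIIB*-/- was above every WT library, and in 3 every one was below, beside 12.1% and 17.5% of all genes tested. The 10 genes had a median log2 fold change of 0.32, beside 0.01 for all genes tested. No change reached a log2 fold change of 1. The plot of CPM by mouse shows the separation of each gene.

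**Figure D1:**
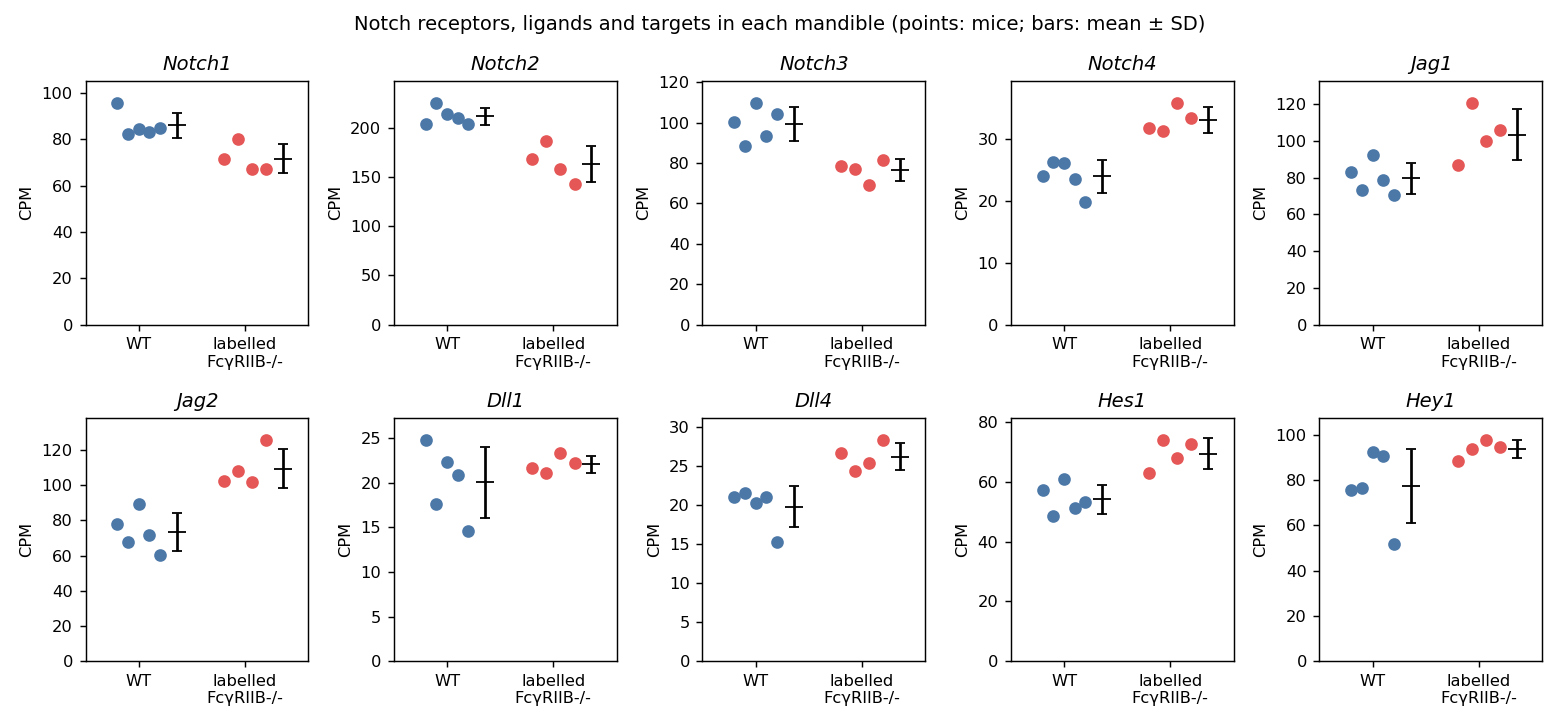
Normalised level (CPM, linear axis from 0) of the 10 genes, with 1 point per mouse and bars for the mean ± SD of 5 WT mice and 4 mice labelled *FcγRIIB*-/-. The 2 groups do not overlap for *Notch1*, *Notch2*, *Notch3*, *Notch4*, *Jag2*, *Dll4* and *Hes1*, and they overlap for *Jag1*, *Dll1* and *Hey1*.

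The receptors split. *Notch2* (gene ID 18129, chr3:98013538-98150367), the receptor with the highest level in WT and one known from bone and vessel wall, was at 204, 225, 214, 210.3 and 204 CPM in the WT mice and at 168, 186, 158 and 143 CPM in the mice labelled *FcγRIIB*-/-. Every WT library was higher than every other library, and the fall was 1.29-fold, from 212 ± 8.79 CPM (SD, n = 5) to 164 ± 18.2 CPM (SD, n = 4). Its log2 fold change was -0.37 (SE 0.08, 95% interval -0.55 to -0.19, adjusted p = 0.00739).

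*Notch3* (gene ID 18131, chr17:32120820-32166896), the receptor of vascular smooth muscle and pericytes, was at 100.4, 88.4, 109.6, 93.4 and 104 CPM in WT and at 78.7, 77.1, 68.9 and 81.3 CPM in the libraries labelled *FcγRIIB*-/-. The groups did not overlap, and the gap between the lowest WT library and the highest of the others was 88.4 to 81.3 CPM. This was a log2 fold change of -0.37 (SE 0.08, 95% interval -0.55 to -0.20, adjusted p = 0.00518). Much of the locus is also covered by the antisense gene *Gm17276*, which had 0 to 5 counts per library against 1604 to 2842 for *Notch3*.

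*Notch1* (gene ID 18128, chr2:26457902-26503822), which acts in lymphoid, epithelial and endothelial cells, was at 95.6, 82.3, 84.7, 83.2 and 85.1 CPM in WT. In the libraries labelled *FcγRIIB*-/- it was at 71.7, 80.4, 67.0 and 67.2 CPM. The groups did not overlap, but replicate 2 of the latter lay close to 4 of the WT mice. A log2 fold change of -0.27 was fitted (SE 0.07, 95% interval -0.43 to -0.11, adjusted p = 0.0179). It missed the threshold without WT replicate 1, the highest library (adjusted p = 0.0570). The *Notch1* locus shares 1488 bp with *0610009E02Rik* on the opposite strand, which had 20 to 36 counts per library against 1326 to 2640 for *Notch1*.

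*Notch4* (gene ID 18132, chr17:34564286-34588543), a receptor largely restricted to endothelium, moved the other way. It was at 23.9, 26.2, 26.0, 23.5 and 19.8 CPM in WT and at 31.7, 31.2, 35.7 and 33.3 CPM in the libraries labelled *FcγRIIB*-/-. All 4 of the latter lay above all 5 WT mice, and the mean rose 1.38-fold, from 23.9 ± 2.61 CPM (SD, n = 5) to 33.0 ± 2.02 CPM (SD, n = 4). The log2 fold change was 0.47 (SE 0.09, 95% interval 0.27 to 0.66, adjusted p = 0.00369).

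The 3 receptors that fell have the longest transcripts of the 10 genes, 10500 bp for *Notch2*, 9488 bp for *Notch1* and 8016 bp for *Notch3*, against 6591 bp for *Notch4*. All 4 belong to the longest quintile of genes, in which 33.4% were lower. With the length trend removed from each library, *Notch1* was at a log2 fold change of -0.05 (adjusted p = 0.629), *Notch2* at -0.14 (adjusted p = 0.133) and *Notch3* at -0.17 (adjusted p = 0.135), and none of the 3 calls was left. With a trend over GC content removed as well, *Notch3* passed (-0.22, adjusted p = 0.0253), and *Notch1* and *Notch2* did not. *Notch4* was higher in both fits, at 0.63 (adjusted p = 0.00119) and 0.57 (adjusted p = 0.00177). The fall of *Notch1*, *Notch2* and *Notch3* and the length trend cannot be told apart in these libraries.

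**Figure D2:**
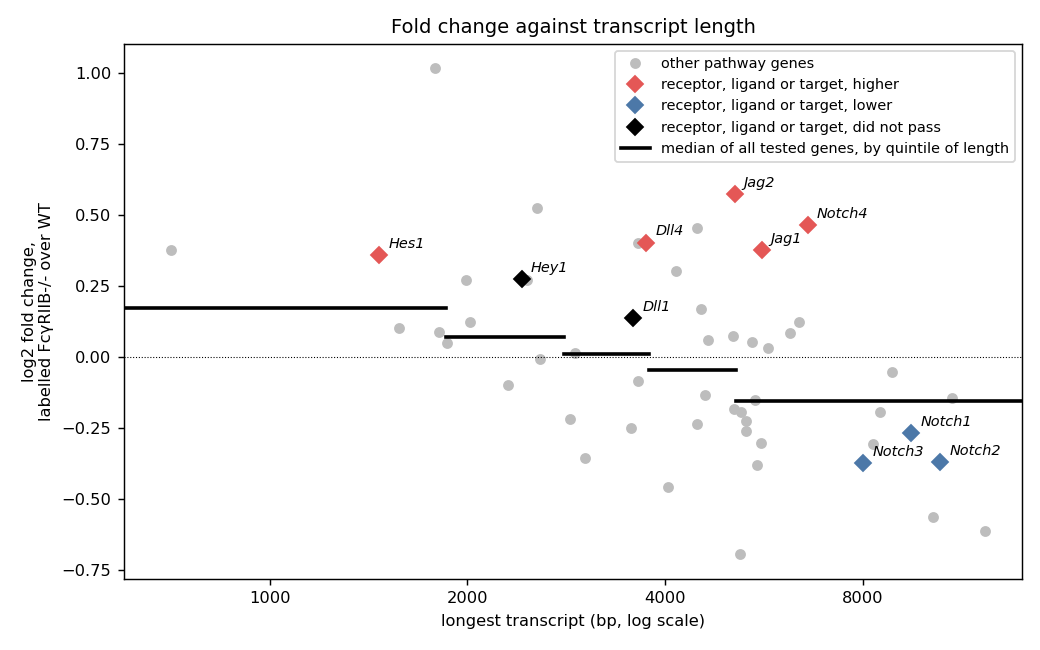
log2 fold change (libraries labelled *FcγRIIB*-/- over WT) of the 10 genes (diamonds) and of the other pathway genes reported here (grey points) against the length of the longest transcript in bp on a log axis, with the median of all tested genes in each quintile of length as black lines. The medians run from 0.17 in the shortest quintile to -0.16 in the longest, with *Notch1*, *Notch2* and *Notch3* below the line of their quintile and *Notch4* and *Jag1* above it.

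Of the ligands, 3 of 4 rose. *Jag2* (gene ID 16450, chr12:112907803-112929812), a Jagged ligand of epithelia and developing limb and craniofacial tissue, had the largest change of the 10 genes. It was at 77.9, 67.9, 89.2, 71.7 and 60.3 CPM in WT and at 102, 108, 102 and 126 CPM in the libraries labelled *FcγRIIB*-/-. The groups did not overlap, and the mean rose 1.49-fold, from 73.4 ± 10.9 CPM (SD, n = 5) to 109 ± 11.2 CPM (SD, n = 4). Its log2 fold change was 0.57 (SE 0.11, 95% interval 0.33 to 0.82, adjusted p = 0.00367).

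*Jag1* (gene ID 16449, chr2:137081451-137116520), the Jagged ligand of osteoblast lineage cells, endothelium and smooth muscle, was at 83.1, 73.1, 92.2, 78.7 and 70.5 CPM in WT. In the libraries labelled *FcγRIIB*-/- it was at 86.9, 120.4, 99.9 and 106 CPM. Replicate 1 of the latter lay below WT replicate 3, so the groups overlapped, and the other 3 lay above every WT mouse. *Jag1* had a log2 fold change of 0.38 (SE 0.10, 95% interval 0.15 to 0.61, adjusted p = 0.0193). The call did not hold without replicate 2 of the libraries labelled *FcγRIIB*-/-, the highest (adjusted p = 0.0554), or with library totals in place of TMM scaling (adjusted p = 0.0611).

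*Dll4* (gene ID 54485, chr2:119325784-119335666), the Delta-like ligand of arterial and sprouting endothelium, was at 21.0, 21.5, 20.2, 21.0 and 15.2 CPM in WT and at 26.6, 24.3, 25.3 and 28.3 CPM in the libraries labelled *FcγRIIB*-/-. The groups did not overlap, with 4 WT mice close together and WT replicate 5 below them. *Dll4* had a log2 fold change of 0.40 (SE 0.10, 95% interval 0.17 to 0.63, adjusted p = 0.0144). Its locus shares 411 bp with *Gm14207* on the opposite strand, which had 29 to 93 counts per library against 390 to 760 for *Dll4*. The strand setting of the counting is not given, so the effect of this overlap is not known.

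*Dll1* (gene ID 13388, chr17:15367354-15376932), the other Delta-like ligand, was at 24.8, 17.6, 22.3, 20.9 and 14.6 CPM in WT and at 21.7, 21.0, 23.3 and 22.2 CPM in the libraries labelled *FcγRIIB*-/-. The 4 latter values lay within the WT range. The log2 fold change was 0.14 (SE 0.14, adjusted p = 0.463). Its 95% interval of -0.16 to 0.44 included the values of *Jag1* and *Dll4*, so this interval alone does not set *Dll1* apart from them. The share of *Dll1* in the ligand level, tested below, passed with the length trend removed but not in the levels as normalised. *Jag1*, at 5612 bp, is in the longest quintile of genes, in which 5.6% were higher. With the length trend removed, *Jag1* was at 0.50 (adjusted p = 0.00557), *Jag2* at 0.68 (adjusted p = 0.00220), *Dll4* at 0.43 (adjusted p = 0.0113) and *Dll1* at 0.16 (adjusted p = 0.411).

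Of the target genes, *Hes1* (gene ID 15205, chr16:30065357-30067796), a repressor that Notch switches on in many tissues, rose. It was at 57.2, 48.4, 60.8, 51.2 and 53.1 CPM in WT and at 62.9, 73.9, 68.0 and 72.7 CPM in the libraries labelled *FcγRIIB*-/-. The groups did not overlap, though WT replicate 3 and replicate 1 of the others were only 60.8 and 62.9 CPM. The mean rose 1.28-fold, with a log2 fold change of 0.36 (SE 0.08, 95% interval 0.18 to 0.53, adjusted p = 0.00703). *Hes1* has a transcript of 1468 bp, in the shortest quintile of genes, of which 26.8% were higher. With the length trend removed its log2 fold change was 0.21 and missed the threshold (adjusted p = 0.0536). With length and GC trends removed it passed, at 0.22 (adjusted p = 0.0440).

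*Hey1* (gene ID 15213, chr3:8663359-8667038), a repressor of vessels and osteoblasts, was at 75.6, 76.6, 92.3, 90.5 and 51.6 CPM in WT and at 88.3, 93.4, 97.7 and 94.7 CPM in the libraries labelled *FcγRIIB*-/-. The groups overlapped because WT replicates 3 and 4 lay among the latter, and the WT mice spread over a far wider range than the others. The log2 fold change was 0.27 (SE 0.14, 95% interval -0.04 to 0.59, adjusted p = 0.160). The log2 ratio of *Hey1* to *Hes1* was -0.19 ± 0.33 in WT (SD, n = 5) and -0.25 ± 0.09 in the mice labelled *FcγRIIB*-/- (SD, n = 4, exact two-sided permutation test p = 0.778, adjusted p = 0.933 over 12 such values). A difference between the targets was thus not detected.

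Levels were compared between genes per length, as CPM per kb of exon. In WT the mean level per length was 26.6 for *Hes1*, 23.7 for *Hey1*, 19.6 for *Notch2*, 13.6 for *Jag1*, 12.3 for *Notch3*, 10.5 for *Jag2*, 6.05 for *Notch1*, 5.14 for *Dll4*, 4.75 for *Dll1* and 2.96 for *Notch4*. The ranges of neighbors overlapped for *Hes1* and *Hey1*, *Hey1* and *Notch2*, *Jag1* and *Notch3*, *Notch3* and *Jag2*, and *Dll4* and *Dll1*. In the libraries labelled *FcγRIIB*-/- the order per length was *Hes1* (34.1), *Hey1* (28.6), *Jag1* (17.7), *Jag2* (15.7), *Notch2* (15.2), *Notch3* (9.46), *Dll4* (6.79), *Dll1* (5.23), *Notch1* (5.03) and *Notch4* (4.09). There the ranges overlapped for *Jag1* and *Jag2*, *Jag2* and *Notch2*, and *Dll1* and *Notch1*. *Notch2* thus stood above both Jagged ligands in WT, and its range overlapped that of *Jag2* in the libraries labelled *FcγRIIB*-/-. These levels keep the length trend, without which the fall of *Notch2* did not pass (-0.14, adjusted p = 0.133). The order also rests on the exon unions, which for *Notch1* is 14232 bp against 9488 bp for its longest transcript.

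Summed per length, the 4 receptors were at 40.9 ± 1.07 CPM per kb in WT (SD, n = 5) and 33.8 ± 1.97 in the mice labelled *FcγRIIB*-/- (SD, n = 4), 1.21-fold lower. The 4 ligands were at 34.1 ± 4.25 and 45.4 ± 3.27 CPM per kb, 1.33-fold higher. The ratio of the ligand sum to the receptor sum was 0.700 to 0.919 in the WT mice and 1.21 to 1.52 in the others. These sums were formed after the single genes had been seen and are given as a description with no test, and the receptor sum consists largely of the 3 long transcripts.

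**Figure D3:**
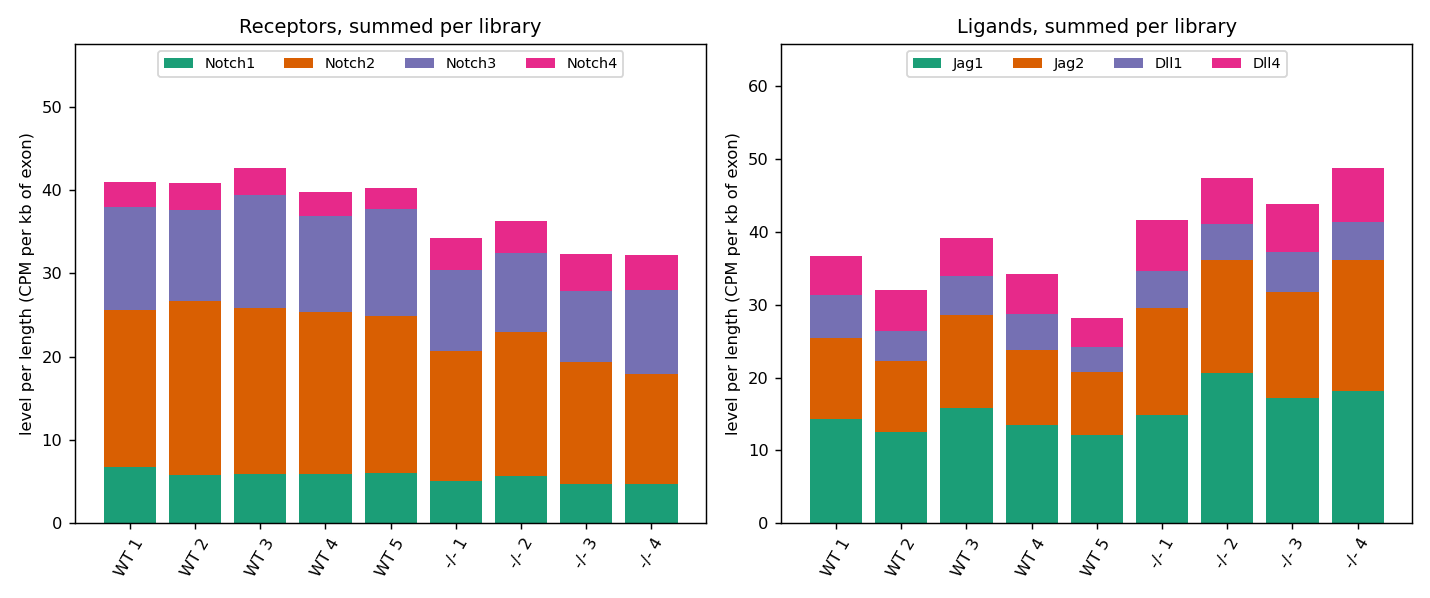
Level per length (CPM per kb of exon, linear axis from 0) of the 4 receptors and of the 4 ligands, stacked for each library, where -/- marks the libraries labelled *FcγRIIB*-/-. Receptor sums are 39.8 to 42.6 in WT and 32.2 to 36.3 in the others, and ligand sums are 28.2 to 39.2 in WT and 41.6 to 48.8 in the others.

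The makeup of each family was tested as shares of its summed level, with two-sided exact permutation tests over all 126 splits of the 9 mice, for which the smallest possible p is 0.00794. *Notch4* supplied 7.24% ± 0.70 of the receptor level in WT (SD, n = 5) and 12.2% ± 1.37 in the mice labelled *FcγRIIB*-/- (SD, n = 4, exact p = 0.00794, adjusted p = 0.0317). All 4 of the latter were above all 5 WT mice. *Notch2* supplied 48.0% ± 2.05 and 44.9% ± 2.65 (exact p = 0.0794, adjusted p = 0.136), *Notch3* supplied 30.0% ± 2.16 and 28.1% ± 2.34 (exact p = 0.222, adjusted p = 0.333), and *Notch1* 14.8% ± 0.96 and 14.9% ± 0.45 (exact p = 0.960, adjusted p = 0.968). The share also depends on the other receptors, and *Notch4* itself rose 1.38-fold. Because *Notch4* was higher and the other 3 receptors lower with no overlap of the groups, its share had to separate. The p of this share therefore adds nothing to the results of the single genes. In levels with the length trend removed, the *Notch4* share was 7.36% ± 0.70 and 12% ± 1.24 (exact p = 0.00794, adjusted p = 0.0381).

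Among the ligands no share passed after adjustment in the levels as normalised. *Jag2* supplied 30.9% ± 1.05 of the ligand level in WT (SD, n = 5) and 34.5% ± 1.97 in the mice labelled *FcγRIIB*-/- (SD, n = 4, exact permutation p = 0.0238, adjusted p = 0.0714). *Dll1* supplied 13.9% ± 1.42 and 11.6% ± 1.06 (exact p = 0.0397, adjusted p = 0.0794). *Jag1* supplied 40.2% and 38.9%, and *Dll4* 15% in both groups (exact p = 0.508 and 0.968). After the length trend was removed, the *Jag2* share was higher by 3.96 points and that of *Dll1* was at a difference of -2.92 points, and both passed (exact p = 0.0159, adjusted p = 0.0381 for each).

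*Notch4* and *Dll4* were also set against a list of 12 endothelial markers, such as *Pecam1* and *Cdh5*. The summed markers were at 677 to 796 CPM in WT and 728 to 829 CPM in the libraries labelled *FcγRIIB*-/-. Of the 12, 3 were higher and 1 was lower, beside 14.0% and 19.3% of all genes. The log2 ratio of *Notch4* to their sum was -4.95 ± 0.14 in WT (SD, n = 5) and -4.58 ± 0.09 in the others (SD, n = 4, exact permutation p = 0.00794, adjusted p = 0.0317). That of *Dll4* was -5.23 ± 0.15 and -4.92 ± 0.09 (exact permutation p = 0.00794, adjusted p = 0.0317). Both ratios were higher in all 4 libraries labelled *FcγRIIB*-/- than in all 5 WT libraries. The sum holds genes that moved apart. *Esam* (log2 fold change 0.50), *Egfl7* (0.51) and *Robo4* (0.43) rose about as much as *Notch4* and *Dll4*. The abundant *Ptprb*, with a transcript of 11911 bp, was at -0.41. The 8 other markers did not pass, at -0.30 to 0.17. The ratios thus set *Notch4* and *Dll4* apart from the sum, but not from every endothelial gene.

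*Notch3* was set against 10 mural markers, such as *Rgs5* and *Myh11*, whose sum was at 981 to 1048 CPM in WT and 882 to 929 CPM in the libraries labelled *FcγRIIB*-/-. The mural sum was itself lower with no overlap, and 2 of the 10 markers were lower. The log2 ratio of *Notch3* to the mural sum was -3.35 ± 0.13 (SD, n = 5) and -3.57 ± 0.11 (SD, n = 4), which did not pass after adjustment (exact permutation p = 0.0397, adjusted p = 0.0794). In levels with the length trend removed it was -3.42 ± 0.14 and -3.49 ± 0.13 (exact permutation p = 0.413, adjusted p = 0.614).

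Several other marker lists moved by larger folds than the Notch genes. The counts of called markers below stand beside the 14.0% higher and 19.3% lower of all genes. Summed erythroid markers were at 388 to 610 CPM in WT and 5.64 to 60.1 CPM in the libraries labelled *FcγRIIB*-/-, with 7 of 7 lower, and granulocyte markers at 1155 to 3470 and 156 to 435 CPM, with 10 of 10 lower. B lineage markers were at 29.6 to 93.2 and 4.21 to 19.2 CPM (7 of 8 lower), macrophage and osteoclast markers at 975 to 1396 and 375 to 618 CPM (6 of 6 lower), and T cell markers at 8.79 to 50.3 and 5.64 to 10.1 CPM (1 of 6 lower). Markers of 2 other tissues were higher: tooth markers at 10382 to 28285 and 31098 to 53098 CPM (3 of 4 higher), and skeletal muscle markers at 6495 to 15257 and 15504 to 27075 CPM (5 of 9 higher). Stratified epithelium was at 6300 to 20800 CPM in WT and 5497 to 6811 CPM in the others (2 of 12 higher, 4 lower). Osteoblast and osteocyte markers were at 27785 to 43487 and 29460 to 40528 CPM (4 of 9 lower), a sum that was mostly *Col1a1* (means of 31252 and 32590 CPM). Among the 4 lower were *Mepe*, from 57.8 ± 105 to 2.63 ± 2.30 CPM, and *Sost*, from 82.1 ± 151 to 6.96 ± 2.67 CPM (SD, n = 5 and 4). No marker was at 0 in all libraries, and *Col1a1* and the tooth markers were abundant, as the mandible label says. *Jag2*, *Hes1* and *Notch1* are also known from tooth or epithelium. The part of tissue makeup in the changes of the Notch genes was not tested.

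**Figure D4:**
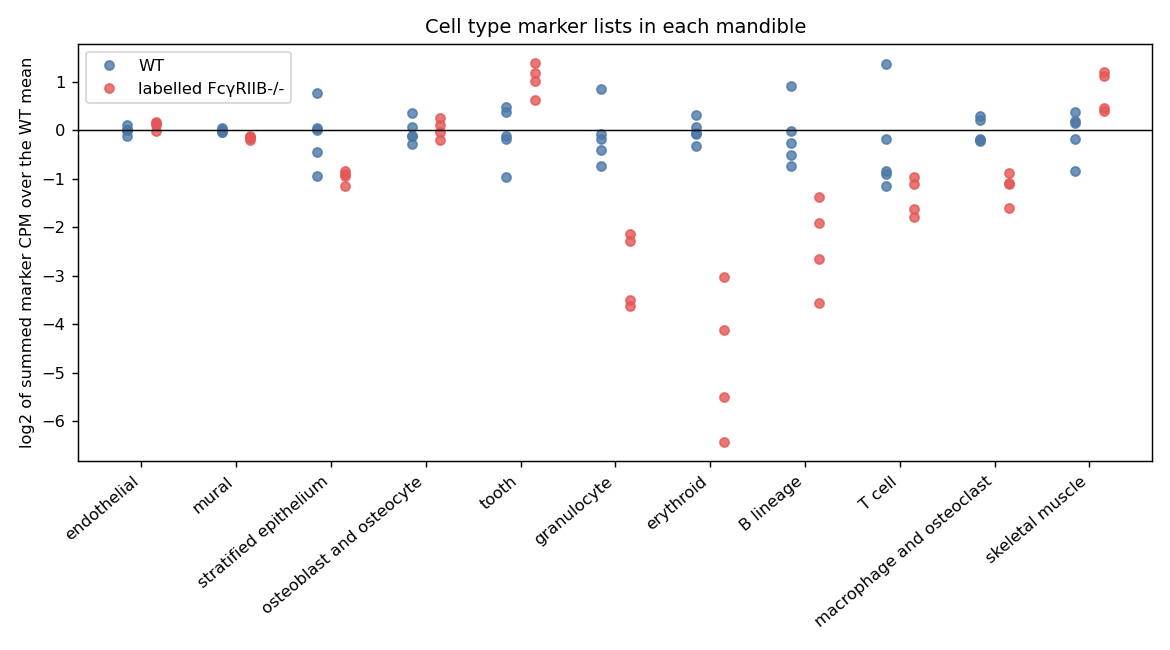
Summed CPM of each cell type marker list in each mouse, as log2 over the mean of the 5 WT mice, for WT (blue) and the 4 mice labelled *FcγRIIB*-/- (red). Erythroid and granulocyte lists are lowest in the mice labelled *FcγRIIB*-/-, tooth and skeletal muscle lists are higher, and the endothelial and mural lists stay near 0.

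Beyond the 10 genes, 46 other genes of the pathway were listed and 44 were tested. The ligand *Dll3* and the target *Hes5* were too low. Of the 44, 6 were higher, 12 were lower and 26 did not pass, beside 14.0% and 19.3% of all genes, and their median log2 fold change was -0.06. In 4 of the 44 every library labelled *FcγRIIB*-/- was above every WT library, and in 12 every one was below, beside 12.1% and 17.5% of all genes tested. Each fit without 1 mouse gave fewer lower genes, 6 to 10, with 6 without WT replicate 1 or 2. Several of the lower genes have long transcripts, and with the length trend removed 4 were higher and 6 lower. Of the pathway calls 33.3% were higher, and 21.1% with library totals alone.

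By role, the ligand list had 1 change among 3 genes tested. *Dlk2*, a non-canonical ligand, rose from 2.55 ± 0.58 CPM (SD, n = 5) to 5.17 ± 1.47 CPM (SD, n = 4), a log2 fold change of 1.02 (SE 0.23, adjusted p = 0.00826), and was the only one of the 44 past a log2 fold change of 1. It also rose with the length trend removed (0.91, adjusted p = 0.0163). *Dlk1* was at 0.06 and did not pass.

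Of the 10 genes that cleave the receptor, 4 fell and 1 rose, beside 19.3% and 14.0% of all genes. The subunits of gamma-secretase did not move together. *Psenen* rose by a log2 fold change of 0.38 (adjusted p = 0.0126), *Ncstn* was at -0.36 (adjusted p = 0.0227) and *Aph1c* at -0.70 (adjusted p = 0.00918), although *Aph1c* is a near copy of *Aph1b* and reads may be split between them. The protease gene *Adam10* was at -0.13 and did not pass, whereas its relative *Adam17* was at -0.24 (adjusted p = 0.0394). *Adam17* and the fourth gene that fell, *Aph1a*, each passed in 1 of the 9 fits without 1 mouse and not in DESeq2 (adjusted p = 0.0534 and 0.0504). *Psenen*, with a transcript of 708 bp, was at 0.12 (adjusted p = 0.310) with the length trend removed, whereas *Ncstn* was at -0.37 (adjusted p = 0.0199). *Ncstn* passed in 6 of the 9 fits without 1 mouse.

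Of the 5 glycosylation genes, *Rfng*, one of the Fringe enzymes that tune which ligand a receptor answers to, rose by 0.27 (adjusted p = 0.0471), and *Pofut1*, which adds the first fucose, was at -0.30 (adjusted p = 0.0156). *Rfng* was at 0.22 (adjusted p = 0.0896) and *Pofut1* at -0.18 (adjusted p = 0.120) with the length trend removed. *Rfng* passed in 3 of the 9 fits without 1 mouse. The Fringe gene *Lfng* was at -0.10 and did not pass.

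Of the 4 ubiquitin ligase genes by which ligands are internalized, *Mib2* rose by 0.40 (adjusted p = 0.00351) and *Mib1* was at -0.56 (adjusted p = 0.0108). *Mib1* has a transcript of 10231 bp, and with the length trend removed it was at -0.34 (adjusted p = 0.0589), against 0.42 (adjusted p = 0.00303) for *Mib2*. With length and GC trends removed, *Mib1* passed (-0.33, adjusted p = 0.0478).

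Among the 9 inhibitors and turnover genes, 1 rose and 3 fell, beside 14.0% and 19.3% of all genes. *Fbxw7*, whose product marks the freed Notch intracellular part for destruction, rose by 0.45 (adjusted p = 0.00585) and also with the length trend removed (0.52, adjusted p = 0.00390). The Notch inhibitor *Numb* was at -0.25 (adjusted p = 0.0340) and the ubiquitin ligase *Itch* at -0.22 (adjusted p = 0.0375). Leaving out 1 mouse at a time, *Numb* passed in 1 of the 9 fits and *Itch* in 2. After removal of the length trend, *Numb* was at -0.23 (adjusted p = 0.0481) and *Itch* at -0.11 (adjusted p = 0.233). *Numbl*, the other that fell (-0.19, adjusted p = 0.0365), passed in 2 of the 9 fits. With the length trend removed *Numbl* was at 0.01 (adjusted p = 0.900).

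In the nuclear complex 3 of 8 genes fell and 0 rose, beside 19.3% and 14.0% of all genes and 33.4% and 5.6% of the longest quintile, to which all 3 belong. *Spen*, a corepressor that binds RBPJ, was at -0.61 (adjusted p = 6.97e-04) and the coactivator *Maml1* at -0.38 (adjusted p = 0.00894). *Spen* has a transcript of 12299 bp, and with the length trend removed it was lower at -0.37 (adjusted p = 0.00189), as was *Maml1* at -0.26 (adjusted p = 0.0389). *Maml3*, the other that fell, was then at -0.10 (adjusted p = 0.262). With length and GC trends removed, *Spen* passed (-0.39, adjusted p = 0.00181) and *Maml1* missed the threshold (-0.26, adjusted p = 0.0558). *Rbpj* itself, the DNA-binding protein on which canonical Notch signaling depends, was at 43.8 ± 1.10 CPM (SD, n = 5) and 39.5 ± 1.73 CPM (SD, n = 4). The *Rbpj* groups did not overlap, but the log2 fold change of -0.15 missed the threshold (adjusted p = 0.0577), and it was -0.03 with the length trend removed.

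Of the 5 other targets tested, *Hey2* rose by 0.53 (adjusted p = 0.0480), a call that held in 2 of the 9 fits without 1 mouse. *Hey2* was at 0.48 (adjusted p = 0.0661) with the length trend removed. *Heyl* was at 0.17 (adjusted p = 0.205), and *Hes6* (0.10), *Hes7* (0.09) and *Nrarp* (-0.01), a feedback inhibitor that Notch switches on, did not pass. Among the 7 targets tested, *Hes1* and *Hey2* were thus the ones called, both higher, beside 14.0% higher and 19.3% lower of all genes. Neither call was left with the length trend removed (adjusted p = 0.0536 and 0.0661), and *Hes1* passed with length and GC trends removed (adjusted p = 0.0440).

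**Figure D5:**
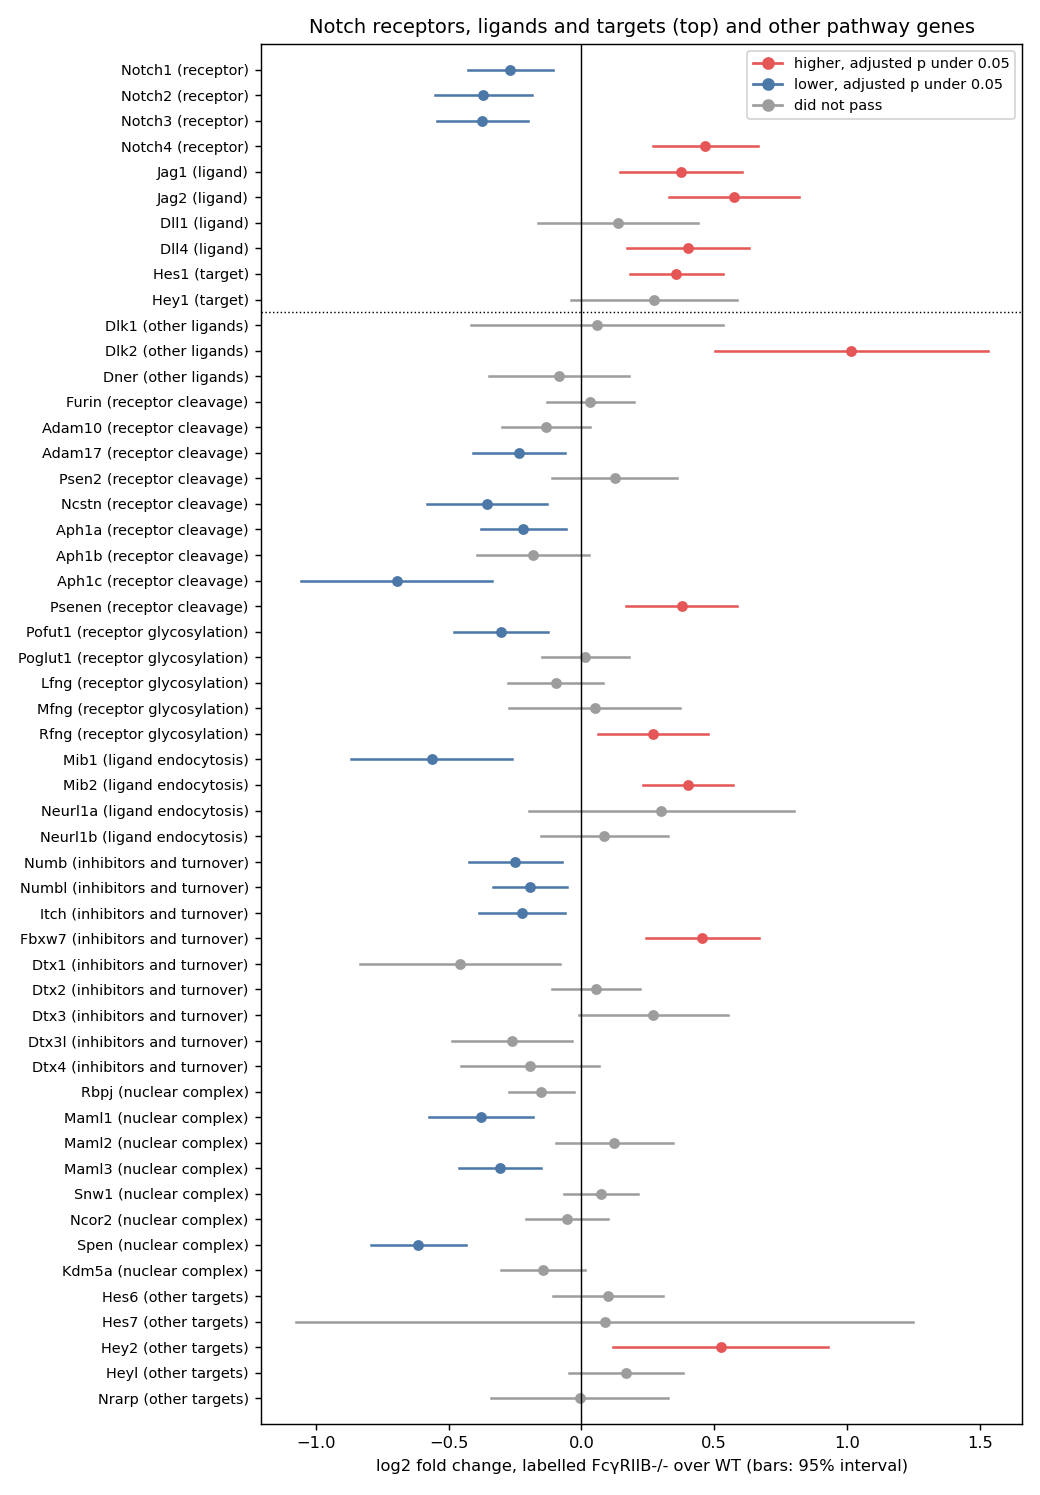
log2 fold change (libraries labelled *FcγRIIB*-/- over WT) with its 95% interval for the 10 genes, above the dotted line, and the other pathway genes reported here, named with their role. Red marks the genes that were higher, blue those that were lower and grey those that did not pass, with *Dlk2* at 1.02 farthest to the right and *Aph1c* at -0.70 farthest to the left.

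The genes whose levels followed each of the 10 most closely over the 9 mice, after the mean of each group was removed, are given as a description among 12920 genes of at least moderate level. *Notch2* followed *Zfp609* (r = 0.991) and *Irs2* (r = 0.986), and then *Stxbp4* (r = 0.947). *Hey1* followed *Bambi* (r = 0.984), *Hand2* (r = 0.976) and *Dlx6os1* (r = 0.974), with r = 0.947, 0.948 and 0.896 without WT replicate 5, the library in which *Hey1* lay farthest from its group. *Jag2* followed *Mapk1ip1* (r = 0.979), *Zfhx3* (r = 0.978) and *Ppp1r3f* (r = 0.978). *Dll4* followed *Oaf* (r = 0.976), *Ficd* (r = 0.959) and *Thbs1* (r = 0.953), and *Notch4* followed *Rgs9* (r = 0.970), *Bex2* (r = 0.958) and *Polr3d* (r = 0.956).

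For *Jag1* the closest were *Ccdc51* (r = 0.955), *Tmco6* (r = 0.953) and *Gpat3* (r = 0.946). For *Dll1* they were *Cyb5d2* (r = 0.95), *Rassf3* (r = 0.947) and *Frmd5* (r = 0.946), and for *Notch3* they were *Ahnak2* (r = 0.945), *Arhgef28* (r = 0.941) and *Naprt* (r = 0.934). *Hes1* had *Asb13* (r = 0.936), *Pak6* (r = 0.933) and *Igsf8* (r = 0.933), and *Notch1* had *Edaradd* (r = 0.912), *Tet3* (r = 0.889) and *Fam213a* (r = 0.888), the lowest values of the 10. None of the 10 genes had another of the 10 among its closest 3. With 9 libraries and many genes searched, high values of r occur by the search itself, and the points share the depth and tissue makeup of each library.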

How the data were processed

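RNA of whole mandibles with teeth was sequenced as directional poly(A) libraries with 75 bp single reads. The authors used Trim Galore for trimming, HISAT (version 02.1.0 in the submitters' processing notes) for alignment to mm10 and featureCounts for counting, and deposited raw counts per gene. The annotation, the strand setting and the treatment of reads matching several genes are not given in the sources used here, so overlapping genes are uncertain. A sample column with a name found in no label (1 column) was not used. A further 1030 rows carry no symbol and were kept under their identifier.

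Everything else was computed from the counts with R 4.3.3. Genotypes were compared with edgeR 4.0.16 (filterByExpr with a minimum count of 10, TMM, quasi-likelihood test without covariates, Benjamini-Hochberg adjustment over 16329 genes at 0.05). Adjusted p-values without a named test are from this fit. The SE is the size of the log2 fold change divided by the root of the F statistic. CPM used TMM-scaled totals, log2 CPM a prior count of 2, and levels per length GENCODE exon unions (GRCm38). Shares and ratios were compared by exact permutation, with adjustment over 12 values. Alternatives were DESeq2 1.42.0, other scalings and filters, a replicate block, leaving out each mouse and, added after seeing the data, removal of each library's lowess trend (span 0.3) over transcript length, alone or with GC content, as an edgeR offset. No library was a near copy of another (0 pairs within a group). Replicates are labelled as separate samples.

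The 10 genes, the pathway list and the marker lists were chosen with earlier results of these data known. The text names all 10 genes, up to 2 called pathway genes per role and direction, the 3 genes most like each of the 10, and, outside this rule, *Adam10*, *Adam17*, *Aph1a*, *Maml3*, *Numbl*, *Esam*, *Egfl7*, *Robo4*, *Ptprb*, *Col1a1*, *Mepe*, *Sost*, *Lfng*, *Dlk1*, *Rbpj*, *Heyl*, *Hes6*, *Hes7* and *Nrarp*, chosen after their values were seen. The values of *Rgs5* were also picked for printing after they were seen. Some genes of the pathway list are counted but not reported singly here. The qPCR, imaging and knockdown work was not analysed here.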

Additional observations from a re-analysis of the deposited data

Results flagged for a closer look

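In 4 of the 44 sets of values examined (each gene's CPM and each share or ratio, within WT or within the libraries labelled *FcγRIIB*-/-) 1 mouse stood apart from the rest by Dixon's test, where chance gives about 1 in 20. *Notch1* was at 95.6 CPM in WT replicate 1, with the other WT mice at 82.3 to 85.1 CPM, and the *Notch1* call was lost without that mouse. *Dll4* was at 15.2 CPM in WT replicate 5, with the others at 20.2 to 21.5 CPM. The share of *Notch1* in the receptor level was 15.5% in replicate 2 of the libraries labelled *FcγRIIB*-/-, with the others at 14.6 to 14.7%. The share of *Jag2* in the ligand level was 32.7% in WT replicate 3, with the others at 30.1 to 30.7%.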

How the results depend on the processing

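No log2 fold change of the 10 genes changed sign under any alternative. *Notch2*, *Notch3*, *Notch4*, *Jag2*, *Dll4* and *Hes1* passed in all 9 fits without 1 mouse and in all 6 other fits with another scaling, filter, tool or a block, and *Dll1* and *Hey1* passed in 0. With the length trend removed, 0 of the 10 genes were lower in edgeR and 6 of the pathway genes were lower. With length and GC trends removed 1 and 6 were lower. With library totals alone, 1309 of all genes were higher and 3781 lower, so 25.7% of calls were higher instead of 42.1% (in the pathway 21.1% instead of 33.3%). The pathway split was 45.5% higher with length and GC trends removed, and its split moved by over 10 points also without WT replicate 1 (45.5%). At a log2 fold change of at least 1, 181 of all genes were higher and 1069 lower, 0 of the 10 genes were higher and 0 lower, and 1 pathway gene was higher and 0 lower. With a replicate block, 1594 of all genes were higher and 2410 lower, 4 of the 10 genes were higher and 3 lower (*Jag1* at adjusted p = 0.0755), 7 pathway genes were lower, and the mean within-number difference in the log2 ratio of *Hey1* to *Hes1* was -0.19 in place of -0.06. Mice with the same number are different animals, and their deviations correlated at -0.114 to 0.0969, so the numbers do not pair the mice. Leaving out 1 mouse, 6 to 10 pathway genes were lower, with 6 or 7 without WT replicates 1, 2 or 5 or replicate 1 of the libraries labelled *FcγRIIB*-/-. Without 1 mouse 0 to 0 of the 12 shares and ratios passed, because fewer splits raise the smallest possible p, which says nothing on stability. The share differences were -0.15 to 0.47 points for *Notch1* (-0.0905 with the longest transcript as length) and -0.66 to 0.46 points for *Dll4*, and the log2 ratio of *Hey1* to *Hes1* differed by -0.19 to 0.0255 (0.0359 with the length trend removed), so these 3 differences have no fixed sign. With the length trend removed 5 of the 12 shares and ratios passed. With the longest transcript as length the *Jag2* share passed (4.0 points, adjusted p = 0.0476). Depth limits none of the 10 genes strongly, as each had 374 or more counts in every library.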
